A study of Rattus norvegicus with 36 samples.

Results

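Interferon-stimulated genes were followed in rat lung after DQ-12, a crystalline silica dust. The 36 members were chosen by name, and all 36 were found by the gene name of their probes among the 25597 gene names of the array and passed the filter on low signals, which kept 23940 genes in all. Each group held 6 female Sprague Dawley rats, 13 weeks old when instilled, that had received 10 mg of DQ-12 by endotracheal instillation or the vehicle alone and were killed at D1, D30, or D180. A single-color array was run on accessory lobe RNA from each rat. A rat is numbered here by its replicate number, the arrays hold whole lobe tissue, and more RNA per cell cannot be told apart from more cells of the type that makes it. Values are quantile normalized log2 signals, so a difference of 1 is a fold change (FC) of 2. Adjusted p values come from limma over all 23940 genes, and a gene was called when its adjusted p was under 0.05.

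Interferons are secreted proteins that cells release on meeting viral or displaced nucleic acids, or that lymphocytes release when activated. Type I interferons act through a complex that includes STAT2 and IRF9 and binds the interferon-stimulated response element of antiviral genes. Interferon gamma acts on gamma-activated sites of genes such as Irf1, the guanylate-binding proteins, and the chemokines Cxcl9, Cxcl10, and Cxcl11. These chemokines attract T cells and natural killer cells through the receptor CXCR3, and nuclear factor kappa B (NF-kappaB) can also drive them. The members comprised 28 genes usually taken as type I targets, these 3 chemokines, and 5 other interferon gamma targets (Irf1, Irf8, Ifi47, Gbp2, and Gbp5), although many of them answer to both kinds of interferon.

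Promoters of the members show which of these elements lie near their start. RefSeq promoter windows of assembly GRCr8 were matched by symbol for 27 of the 36 members and run from 250 bases before to 50 bases after the start of the gene. Not matched were Ddx58, Dhx58, Ifit1, Ifit2, Isg15, Mx2, Oas2, Rtp4, and Usp18. The 250 bases before the start are given for the 3 chemokines, for Ifit3 and Rsad2 as antiviral genes, and for Gbp2 and Ifi47 as interferon gamma targets, since the results turn on these genes. Each reads 5′ to 3′ along the strand of the gene, with capitals for every match, on either strand, to GAAANNGAA (the core of the interferon-stimulated response element), TTCNNNGAA (the gamma-activated sequence), or GGGANNTTC (an NF-kappaB-like sequence).
Cxcl10, chr14:15988816-15989065 (+ strand): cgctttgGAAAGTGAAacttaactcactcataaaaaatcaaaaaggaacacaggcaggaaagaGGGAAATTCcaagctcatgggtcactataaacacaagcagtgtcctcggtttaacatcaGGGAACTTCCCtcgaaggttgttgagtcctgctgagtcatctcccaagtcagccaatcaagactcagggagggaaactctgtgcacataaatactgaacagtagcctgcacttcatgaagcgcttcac
Cxcl11, chr14:15973478-15973727 (+ strand): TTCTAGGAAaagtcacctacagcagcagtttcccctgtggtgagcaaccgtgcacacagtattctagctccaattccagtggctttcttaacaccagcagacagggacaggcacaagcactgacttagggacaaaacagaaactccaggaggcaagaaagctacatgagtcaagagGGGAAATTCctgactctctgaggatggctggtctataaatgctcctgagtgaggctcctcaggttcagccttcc
Cxcl9, chr14:16006916-16007165 (+ strand): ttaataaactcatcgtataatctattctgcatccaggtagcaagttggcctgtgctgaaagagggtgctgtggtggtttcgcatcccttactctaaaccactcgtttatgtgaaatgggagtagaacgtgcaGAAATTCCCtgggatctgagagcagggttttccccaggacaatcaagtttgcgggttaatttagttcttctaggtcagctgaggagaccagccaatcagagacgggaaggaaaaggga
Ifit3, chr1:241527076-241527325 (+ strand): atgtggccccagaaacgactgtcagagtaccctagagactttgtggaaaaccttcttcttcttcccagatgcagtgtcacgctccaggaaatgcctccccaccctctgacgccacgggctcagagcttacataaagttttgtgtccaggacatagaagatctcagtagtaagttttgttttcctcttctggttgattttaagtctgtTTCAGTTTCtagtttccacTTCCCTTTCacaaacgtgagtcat
Rsad2, chr6:48788121-48788370 (- strand): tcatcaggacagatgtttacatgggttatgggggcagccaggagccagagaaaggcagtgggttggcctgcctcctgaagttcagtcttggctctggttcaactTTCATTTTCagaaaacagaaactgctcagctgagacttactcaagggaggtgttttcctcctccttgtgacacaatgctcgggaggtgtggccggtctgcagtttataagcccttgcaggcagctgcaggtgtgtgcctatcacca
Gbp2, chr2:234005477-234005726 (+ strand): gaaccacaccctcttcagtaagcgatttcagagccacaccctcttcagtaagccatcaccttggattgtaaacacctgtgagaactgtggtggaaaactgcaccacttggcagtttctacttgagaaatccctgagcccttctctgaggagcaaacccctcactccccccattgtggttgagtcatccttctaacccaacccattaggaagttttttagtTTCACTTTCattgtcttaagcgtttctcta
Ifi47, chr10:33798494-33798743 (+ strand): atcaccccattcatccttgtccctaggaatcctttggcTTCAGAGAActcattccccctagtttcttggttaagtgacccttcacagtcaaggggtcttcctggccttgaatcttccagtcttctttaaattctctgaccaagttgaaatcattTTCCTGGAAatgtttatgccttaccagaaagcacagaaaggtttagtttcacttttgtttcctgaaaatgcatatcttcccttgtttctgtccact

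All 3 chemokine windows held GGGANNTTC, against 0 of 19 windows of type I targets, 1 of 5 of the other interferon gamma targets (Gbp5), and 4.05% of all 33469 promoter windows of the same length. In Cxcl10 it matched 3 times, and the 2 matches that begin 128 and 126 bases before the start overlap on opposite strands. The core GAAANNGAA lay in 12 of the 19 type I windows and in 15 of the 27 members, against 9.71% of all windows. Ifit3 held it 2 times, 43 and 24 bases before the start, Gbp2 held it 30 bases before the start, and of the chemokines Cxcl10 held it 243 bases before the start. TTCNNNGAA lay in 9 of the 27 members (4 of 19 type I targets, 2 of 3 chemokines, and 3 of 5 other interferon gamma targets), against 8.87% of all windows. A match is a description of the letters and not evidence of a site in use.

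More members were called at D180 than at D1 or D30. At D180, 22 of 36 were higher after DQ-12 and 0 were lower in limma (0 also at an unadjusted p under 0.05), beside 7.82% of all genes tested that were higher and 9% that were lower. Of the 22, 11 had an FC of at least 2, beside 2.86% of all genes. At D1, 5 members were higher (7.58% of all genes were) and 1 was lower (8.62%), with an FC of at least 2 for Cxcl10 and Ifit3 (2.02%). At D30, 1 was higher (2.74%) and 1 was lower (1.24%), with an FC of at least 2 for Cxcl10 (0.915%). The median log2 change of the members was 0.16 at D1, 0.24 at D30, and 0.65 at D180, while that of all genes tested was -0.01, -0.02, and -0.03. Of the 22 higher at D180, 19 had a positive log2 change at D1 and 20 at D30. In limma the change itself differed for 6 of the 36 members between D180 and D1, beside 4.55% of all genes. Between D180 and D30 it differed for 0 of 36, beside 0.246% (11 at an unadjusted p under 0.05). Every DQ-12 rat exceeded every vehicle rat for 3 members at D1 (5.24% of all genes), 4 at D30 (1.81%), and 8 at D180 (3.84%). Groups were spread unevenly over scan dates. All 6 DQ-12 arrays of D1 shared a scan date with 1 vehicle array (rat 3). With scan date as a fixed block, D1 therefore compares the 6 DQ-12 rats with vehicle rat 3 alone. Its calls at D1, and for D180 against D1, are not counted. In that fit limma called 0 members at D30 (lowest adjusted p = 0.0773, for Isg20, with 11 at an unadjusted p under 0.05), while 25 were higher at D180. The D180 contrast of the scan date fit rests on the dates that held both groups. These held vehicle rats 1 to 4 and DQ-12 rats 1, 2, 3, and 5. Left out are vehicle rats 5 and 6, DQ-12 rat 4, a low rat, and DQ-12 rat 6, a higher one. The share of all genes called in that fit is not given here. With slide as a fixed block, the D180 contrast is DQ-12 rat 1 against vehicle rat 4, which shared a slide. Its calls are therefore not counted. With the D180 arrays fitted alone, 13 were higher.

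**Figure D1:**
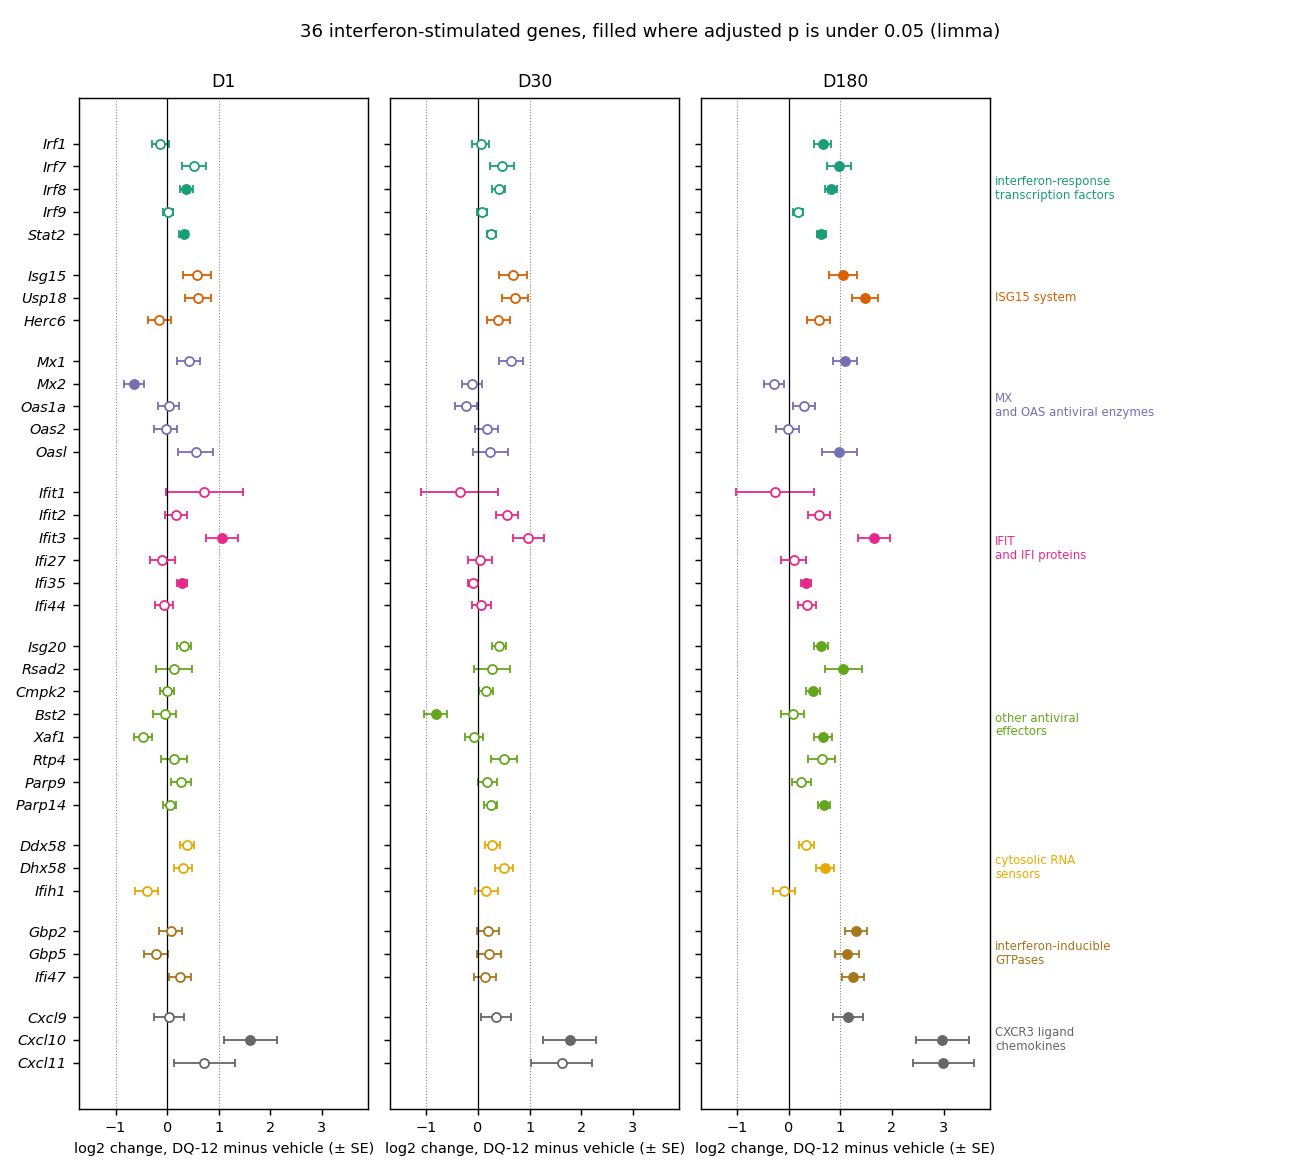
Log2 change (DQ-12 minus vehicle, x axis, with its SE) of the 36 members at D1, D30, and D180, ordered and colored by role. Points are filled where the adjusted p is under 0.05 and dotted lines mark an FC of 2. Filled points number 6 at D1, 2 at D30, and 22 at D180, and Cxcl10 and Cxcl11 lie farthest to the right at D180.

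Among the members, Cxcl10 and Cxcl11 had the largest log2 changes at D180, while Cxcl9 lay below Ifit3, Usp18, Gbp2, and Ifi47. After normexp background correction the log2 change of Cxcl11 was 0.96. Cxcl10, a ligand induced by both kinds of interferon, had a log2 signal of 5.75 to 7.62 in the vehicle group (median 6.51) and 5.96 to 9.83 after DQ-12 (median 8.41) at D1, with 5 of 6 DQ-12 rats higher than every vehicle rat. At D30 its range was 6.98 to 7.66 in the vehicle group (median 7.19) and 7.99 to 10.42 after DQ-12 (median 8.78). The D180 rats ranged over 6.07 to 7.42 (vehicle median 7.09) and 8.17 to 11.17 (DQ-12 median 10.31). The groups therefore overlapped at D1 through DQ-12 rat 2 and did not overlap at D30 or D180. The log2 change was 1.61 at D1 (SE 0.51, FC 3.06, adjusted p = 0.0284), 1.78 at D30 (SE 0.51, FC 3.43, adjusted p = 0.0429), and 2.98 at D180 (SE 0.51, FC 7.86, adjusted p = 6.34e-05). The exact permutation p over rats (2-sided, n = 6 per group) was 0.039, 0.00216, and 0.00216, the last being the smallest that 6 against 6 rats can give.

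The Cxcl10 calls at D1 and D30 were lost without certain single rats and with scan date as a random block. At D1 the adjusted p rose to 0.0869 at most and the call was lost without vehicle rat 1, 2, or 4 or without DQ-12 rat 1, 3, or 6. At D30 it rose to 0.145 at most and the call was lost without vehicle rat 1, 2, 4, 5, or 6 or without DQ-12 rat 1, 2, or 4. At D180 it was never above 0.000377 with any 1 rat left out. With scan date as a fixed block the log2 change was 1.45 (adjusted p = 0.249) at D30 and 3.27 at D180, where the adjusted p was 0.00039. At D1 that fit gave 0.84, which is the 6 DQ-12 rats against vehicle rat 3 alone. With slide as a fixed block the D180 change was 3.83, which is DQ-12 rat 1 minus vehicle rat 4 alone. Within the scan date shared at D180 by vehicle rats 1, 3, and 4 and DQ-12 rats 1 to 3, the means differed by 3.66, and on the date shared by vehicle rat 2 and DQ-12 rat 5 the values differed by 2.10.

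Cxcl11, the third CXCR3 ligand, had a dim probe that was well above background in few vehicle rats. At D180 its log2 signal was 2.17 to 4.70 in the vehicle group (median 3.40), of which 2 of 6 were well above background, and 5.13 to 8.12 after DQ-12 (median 6.51), of which 5 of 6 were. No DQ-12 rat overlapped a vehicle rat. The log2 change was 2.99 (SE 0.59, FC 7.95, adjusted p = 0.000362), and it rests in part on signals near background. At D30 the change was 1.63 (SE 0.59, adjusted p = 0.129), with 3 of 6 vehicle rats and 5 of 6 DQ-12 rats well above background, and at D1 it was 0.72 (SE 0.59, adjusted p = 0.456). After normexp background correction, which adds an offset that compresses dim signals, the D180 change was 0.96 and the gene was still called.

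Cxcl9, the ligand most closely tied to interferon gamma, passed the test at D180 alone. At D180 its log2 signal was 7.30 to 8.02 in the vehicle group (median 7.57) and 8.24 to 9.17 after DQ-12 (median 8.83), and the groups did not overlap. The log2 change was 1.14 (SE 0.29, FC 2.20, adjusted p = 0.00493). At D30 the DQ-12 rats spread over 6.51 to 8.49 (median 7.52) around the vehicle rats at 6.80 to 7.80 (median 7.10), with a log2 change of 0.35 (SE 0.29, adjusted p = 0.651). At D1 the ranges were 5.61 to 7.31 in the vehicle group (median 5.86) and 5.92 to 6.65 after DQ-12 (median 6.25), with a log2 change of 0.04 (SE 0.29, adjusted p = 0.959). The difference between the changes at D180 and D1 did not pass the test for Cxcl9 (1.10, SE 0.41, adjusted p = 0.123), Cxcl10 (1.36, SE 0.73, adjusted p = 0.308), or Cxcl11 (2.27, SE 0.84, adjusted p = 0.119), so a later rise of these 3 genes was not shown by the interaction test. Cxcr3, the gene of their receptor, had a log2 change of 0.71 at D180 (SE 0.25, adjusted p = 0.0507).

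**Figure D2:**
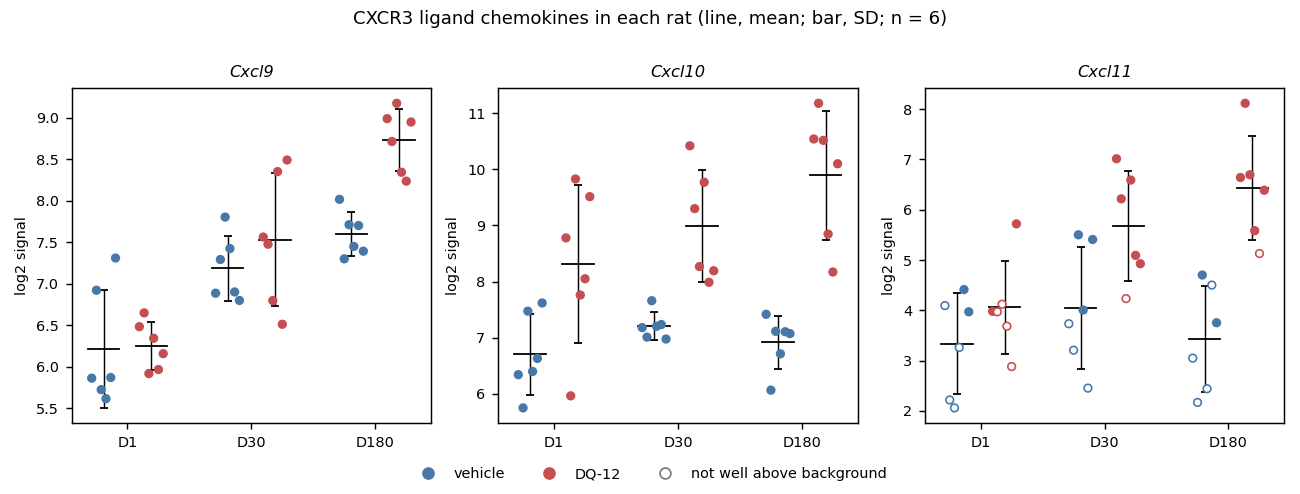
Log2 signal (y axis) of Cxcl9, Cxcl10, and Cxcl11 in each of the 36 rats by time point and group, with the mean as a line and the SD as a bar. Open points were not well above background, and at D180 all 6 DQ-12 rats lie above all 6 vehicle rats in each panel.

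Among the interferon-inducible GTPases, proteins that assemble on vacuoles holding microbes, all 3 members were called at D180 and 0 at D1 or D30 in limma (0 also at an unadjusted p under 0.05). Gbp2, a guanylate-binding protein, had a log2 signal of 12.10 to 12.53 in the vehicle group (median 12.24) and 12.50 to 14.58 after DQ-12 (median 13.86) at D180. The lowest DQ-12 rat (rat 5) fell inside the vehicle range and the other 5 lay above it. Its log2 change was 1.30 (SE 0.22, FC 2.46, adjusted p = 3.8e-05), against 0.07 at D1 and 0.19 at D30. Gbp5, a guanylate-binding protein linked to inflammasome assembly, ranged over 9.82 to 10.52 in the vehicle group (median 10.32) and 10.42 to 12.58 after DQ-12 (median 11.30), and DQ-12 rats 4 and 5 overlapped the vehicle rats. The log2 change of Gbp5 was 1.13 (SE 0.23, FC 2.18, adjusted p = 0.000566), and with the D180 arrays fitted alone the adjusted p was 0.063. Ifi47, an immunity-related GTPase, ranged over 8.08 to 9.22 in the vehicle group (median 8.45) and 8.93 to 10.43 after DQ-12 (median 9.89), where the same 2 rats overlapped. For Ifi47 the log2 change was 1.24 (SE 0.21, FC 2.37, adjusted p = 5e-05).

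The changes of these GTPases at D180 exceeded those at D1. The difference of the log2 changes was 1.35 for Gbp5 (SE 0.33, adjusted p = 0.0134), 1.23 for Gbp2 (SE 0.31, adjusted p = 0.0157), and 1.00 for Ifi47 (SE 0.30, adjusted p = 0.0473). In all, 6 of 36 members passed this interaction test, beside 4.55% of all genes. The other 3 were Xaf1, a promoter of apoptosis (1.12, SE 0.25, adjusted p = 0.00701), Irf1 (0.79, SE 0.23, adjusted p = 0.0449), and Parp14, an ADP-ribosyltransferase (0.63, SE 0.17, adjusted p = 0.0258). With scan date as a fixed block, the D1 side of this test rests on vehicle rat 3 alone, so its count is not given. Between D180 and D30, and between D30 and D1, 0 members passed in limma, beside 0.246% and 2.18% of all genes. At an unadjusted p under 0.05 there were 11 and 2, and the lowest adjusted p was 0.0974 (Ifi47, D180 against D30) and 0.151 (Ifi35, D30 against D1).

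Of the interferon-response transcription factors, 4 of 5 were higher at D180. Stat2, a transcription factor of type I signaling, changed little but in every rat. Stat2 signals spanned 11.96 to 12.16 in the vehicle group (median 12.12) and 12.24 to 12.49 after DQ-12 (median 12.44) at D1, and at D30 these ranges were 11.92 to 12.13 (median 12.07) and 12.19 to 12.51 (median 12.30). The D180 ranges were 11.92 to 12.26 (median 12.01) and 12.29 to 12.91 (median 12.78). The groups were separate at all 3 time points. Its log2 change was 0.32 at D1 (SE 0.09, adjusted p = 0.00938), 0.26 at D30 (SE 0.09, adjusted p = 0.0831), and 0.63 at D180 (SE 0.09, adjusted p = 1.59e-06). Irf8, a factor of myeloid and dendritic cell development, was higher at D1 (0.37, SE 0.12, adjusted p = 0.032) and D180 (0.82, SE 0.12, adjusted p = 7.6e-06). Its D1 call was lost without vehicle rat 1 or 2 or DQ-12 rat 1 or 6 (adjusted p up to 0.0986). That call was also lost with 75th percentile scaling, the deposited log2 values, and the median of probes. Scan date or slide as a random block and replicate number as a block lost it too. Irf7, the amplifier of type I interferon production, reached 0.97 at D180 (SE 0.23, FC 1.96, adjusted p = 0.00251), and Irf1, an early interferon gamma target, reached 0.65 (SE 0.16, adjusted p = 0.00452). Irf9 had a log2 change of 0.17 (SE 0.10, adjusted p = 0.267).

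Of the ISG15 system, which conjugates a ubiquitin-like protein to other proteins and removes it, 2 of 3 members were higher at D180, both at an FC of at least 2. Usp18, which removes ISG15 and damps the type I receptor, ranged over 7.65 to 8.67 in the vehicle group (median 8.08) and 8.79 to 10.72 after DQ-12 (median 9.58), with no overlap. Usp18 thus changed by 1.47 (SE 0.25, FC 2.77, adjusted p = 5.66e-05), against 0.59 at D1 (SE 0.25, adjusted p = 0.111) and 0.71 at D30 (SE 0.25, adjusted p = 0.115). Isg15, the modifier itself, ranged over 11.08 to 12.01 in the vehicle group (median 11.31) and 11.53 to 13.46 after DQ-12 (median 12.61), and DQ-12 rats 4 and 5 overlapped the vehicle rats. The log2 change of Isg15 was 1.05 (SE 0.28, FC 2.08, adjusted p = 0.00627). Herc6, known in mice as the ligase, had a log2 change of 0.58 at D180 (SE 0.22, adjusted p = 0.0748).

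The antiviral enzymes of the MX and OAS families were uneven. Mx1, a GTPase that blocks viral replication, ranged over 11.08 to 11.60 in the vehicle group (median 11.39) and 11.69 to 13.37 after DQ-12 (median 12.42) at D180, without overlap. Its log2 change was 1.09 (SE 0.23, FC 2.14, adjusted p = 0.000749). Oasl, an OAS family member, was dim and reached 0.98 (SE 0.34, adjusted p = 0.0467), with 4 of 6 vehicle rats and 5 of 6 DQ-12 rats well above background, and its call was lost when any of 23 of the 36 rats was left out (adjusted p up to 0.158). The Oasl call was also lost with 75th percentile scaling, the deposited log2 values, no filter, and the median of probes. Slide as a random block and the D180 arrays fitted alone lost it too. The D180 log2 change was 0.30 for Oas1a, which makes the messenger that activates RNase L, and -0.02 for Oas2, and neither passed the test.

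The 2 probes of Mx2 went opposite ways. The brighter one, used here, ranged over 14.80 to 15.95 in the vehicle group (median 15.20) and 13.64 to 15.18 after DQ-12 (median 14.79) at D1, and the groups overlapped. It was lower at D1 (-0.64, SE 0.20, adjusted p = 0.024), and the call was lost without vehicle rat 2 or 4 or DQ-12 rat 2 (adjusted p up to 0.1). This call was also lost with 75th percentile scaling, the deposited log2 values, the median of probes, and the D1 arrays fitted alone. Scan date or slide as a random block and replicate number as a block lost it too. The second probe ranged over 5.68 to 6.46 in the vehicle group (median 6.03) and 6.03 to 8.55 after DQ-12 (median 6.96) at D180, a log2 change of 1.03 (adjusted p = 0.0261 in a fit of all probes), where the brighter probe gave -0.28. The direction for Mx2 therefore depends on the probe.

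Of the IFIT and IFI proteins, 2 of 6 were higher at D1 and at D180. Ifit3, which binds viral RNA in a complex with IFIT1, ranged over 7.66 to 8.21 in the vehicle group (median 7.91) and 8.12 to 9.92 after DQ-12 (median 8.96) at D1. At D30 the vehicle rats ranged over 7.65 to 8.74 (median 8.23) and the DQ-12 rats over 8.60 to 9.67 (median 9.30). At D180 these ranges were 7.91 to 9.34 (median 8.36) for vehicle and 9.20 to 11.51 (median 10.19) for DQ-12. The groups touched at each time, through DQ-12 rat 5 at D1, DQ-12 rats 5 and 6 at D30, and DQ-12 rats 4 and 5 at D180. The log2 change was 1.06 at D1 (SE 0.31, FC 2.09, adjusted p = 0.0161), 0.98 at D30 (SE 0.31, adjusted p = 0.07), and 1.66 at D180 (SE 0.31, FC 3.15, adjusted p = 0.000175). At D1 the call was lost without DQ-12 rat 3 (adjusted p = 0.0537) and with scan date as a random block. With scan date as a fixed block the D1 change was 1.32, which is the 6 DQ-12 rats against vehicle rat 3 alone. Ifi35 was higher by 0.29 at D1 (SE 0.10, adjusted p = 0.0444) and by 0.34 at D180 (SE 0.10, adjusted p = 0.0176), with all DQ-12 rats above all vehicle rats both times. Its D1 call was lost without any of 9 rats (each of the 6 vehicle rats, and DQ-12 rats 1, 3, and 6, adjusted p up to 0.132), and its D180 call without vehicle rat 2 or 3 (adjusted p up to 0.0522). The D1 call of Ifi35 was also lost with 75th percentile scaling, the deposited log2 values, normexp background correction, and the median of probes. Scan date or slide as a random block lost the D1 call as well. Replicate number as a block lost both calls, and the D180 arrays fitted alone lost the D180 call. At D180, Ifit2 (0.59, adjusted p = 0.0591), Ifi44 (0.36, adjusted p = 0.18), and Ifi27 (0.10, adjusted p = 0.859) did not pass the test, and Ifit1 was well above background in 2 vehicle rats and 1 DQ-12 rat of D180.

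Of the 8 other antiviral effectors, 5 were higher at D180 and 1 was lower at D30. Rsad2, which encodes viperin and makes a chain-terminating nucleotide, ranged over 9.24 to 10.10 in the vehicle group (median 9.53) and 9.90 to 12.16 after DQ-12 (median 10.62) at D180, and DQ-12 rats 4 and 5 overlapped the vehicle rats. Its log2 change was 1.06 (SE 0.35, FC 2.09, adjusted p = 0.0349), and the call was lost without vehicle rat 2, 5, or 6 or DQ-12 rat 1, 2, or 6 (adjusted p up to 0.14). The Rsad2 call was also lost with scan date as a fixed block, with the D180 arrays fitted alone, and with array weights. Parp14 (0.68, SE 0.12, adjusted p = 8.91e-05), Xaf1 (0.66, SE 0.18, adjusted p = 0.00788), Isg20, an exonuclease (0.62, SE 0.13, adjusted p = 0.000633), and Cmpk2, a mitochondrial nucleotide kinase next to Rsad2 (0.48, SE 0.14, adjusted p = 0.0134), rose with an FC under 2. The Cmpk2 call was lost without DQ-12 rat 2 (adjusted p = 0.0593). At D1, Xaf1 was the 1 member for which all 6 DQ-12 rats lay below all 6 vehicle rats (5.97% of all genes did), at 5.73 to 6.52 (median 6.38) against 6.54 to 6.90 (median 6.75), with a log2 change of -0.47 (SE 0.18, adjusted p = 0.0682).

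Bst2, which encodes tetherin and marks plasmacytoid dendritic cells, was the 1 member lower at D30. It ranged over 14.12 to 15.47 in the vehicle group (median 14.63) and 13.52 to 14.79 after DQ-12 (median 13.85), and 5 of 6 DQ-12 rats lay below all vehicle rats. The log2 change was -0.82 (SE 0.22, 1.76-fold lower, adjusted p = 0.0311), and the call was lost without vehicle rat 2, 5, or 6 or DQ-12 rat 1, 4, or 6 (adjusted p up to 0.11). Within the 2 scan dates of D30 the means differed by -0.17 and -0.57. At D1 and D180 its log2 change was -0.05 and 0.08. The log2 summed signal of 4 other plasmacytoid dendritic cell markers, without Bst2 and Irf8, was 12.66 to 13.09 (median 12.87) for vehicle and 12.42 to 12.83 (median 12.69) for DQ-12 at D30. These ranges overlapped, and the part of such cells in the result was not tested. Rtp4 (0.64, adjusted p = 0.0905) and Parp9 (0.24, adjusted p = 0.452) did not pass the test at D180.

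Of the cytosolic RNA sensors, which detect viral RNA and switch on interferon genes, Dhx58 was higher at D180 (0.70, SE 0.18, FC 1.63, adjusted p = 0.00485). Ddx58, the gene of RIG-I, had a log2 change of 0.39 at D1 (SE 0.14, adjusted p = 0.0607), 0.28 at D30 (SE 0.14, adjusted p = 0.348), and 0.34 at D180 (SE 0.14, adjusted p = 0.106). Ifih1, the gene of MDA5, had one of -0.09 at D180 (SE 0.22, adjusted p = 0.853).

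**Figure D3:**
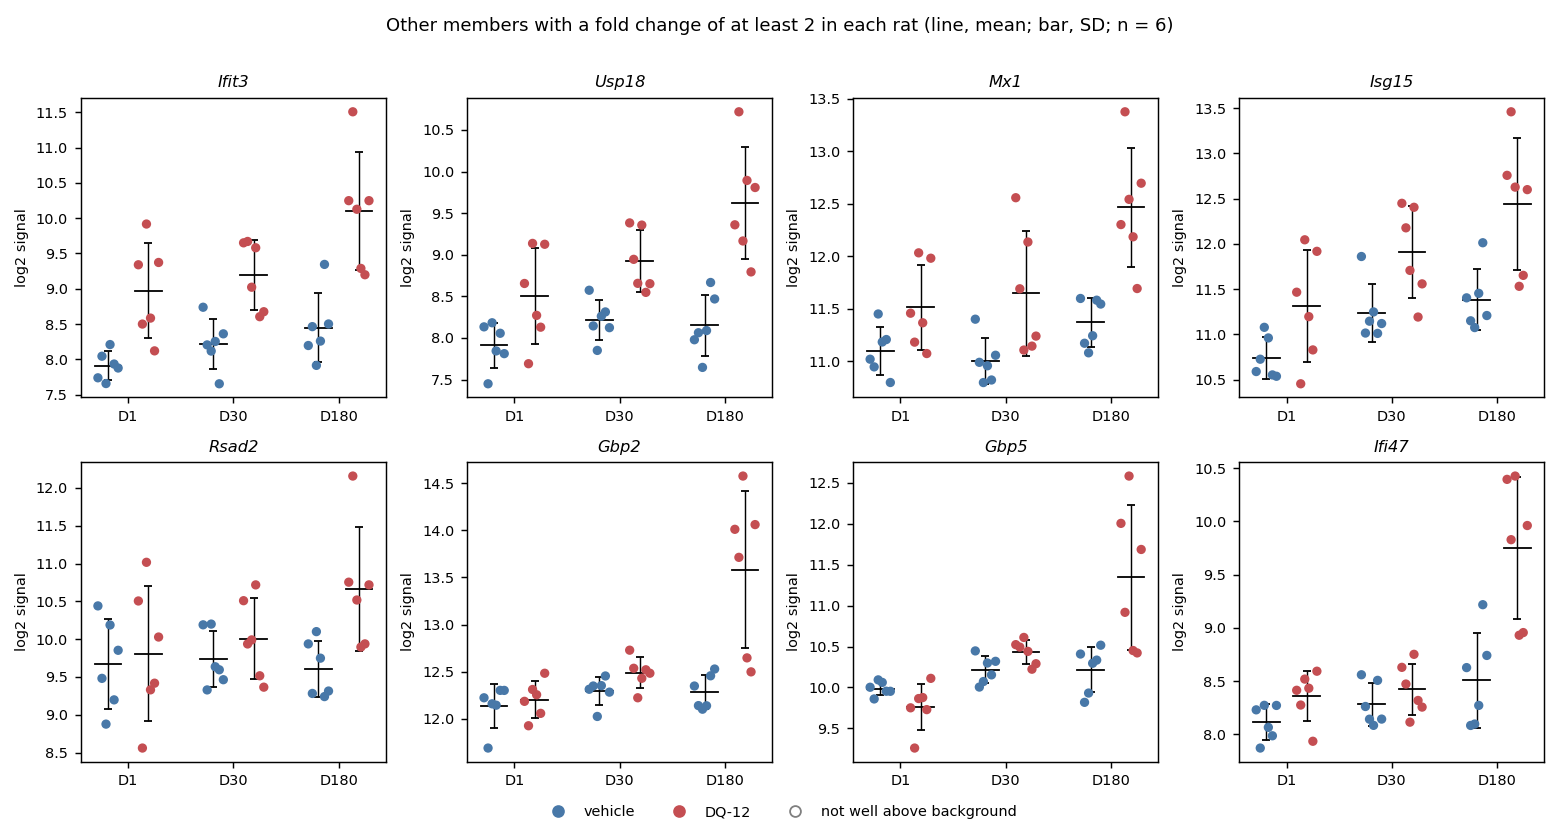
Log2 signal (y axis) of the 8 members beside the chemokines called at any time point with an FC of at least 2, in each of the 36 rats by time point and group, with the mean as a line and the SD as a bar. At D180 the upper 4 DQ-12 rats lie above all vehicle rats in each panel, while the groups do not overlap for Usp18 and Mx1.

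Type I targets and interferon gamma chemokines were set side by side by counts and medians, with no test, since the lists were chosen with results known. Of the 28 type I targets, 3 were higher and 1 lower at D1, 0 higher and 1 lower at D30, and 14 higher and 0 lower at D180. Of all genes tested, 7.58% were higher and 8.62% lower at D1, 2.74% and 1.24% at D30, and 7.82% and 9% at D180, so that the D1 and D30 counts of type I targets were near these shares. The median log2 change of the type I targets was 0.16 at D1, 0.24 at D30, and 0.58 at D180. Of the 3 chemokines, 1 was higher at D1, 1 at D30, and 3 at D180, with a median of 0.72, 1.63, and 2.98. Of the 5 other interferon gamma targets, 1 was higher at D1, 0 at D30, and 5 at D180, with a median of 0.07, 0.19, and 1.13. The chemokine medians were the largest of the 3 lists at each time, but they rest on 3 probes, of which Cxcl11 was dim. After normexp background correction the order turned at D180, with a median of 0.96 for the chemokines, 1.08 for the other interferon gamma targets, and 0.42 for the type I targets.

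The mean log2 signal of each list in each rat, relative to the vehicle mean of the day, showed where the groups overlapped. For the chemokines it was 1.20 to 3.35 (median 2.62) in the DQ-12 rats of D180 and -0.80 to 0.53 in the vehicle group (median 0.13). For the other interferon gamma targets it was 0.21 to 1.80 (median 1.11) against -0.26 to 0.19 (median 0.03), and for the type I targets 0.12 to 1.16 (median 0.56) against -0.19 to 0.23 (median -0.02). The lists were thus separate in both interferon gamma sets, and for the type I targets DQ-12 rats 4 and 5 overlapped the vehicle rats. For the other interferon gamma targets the gap was narrow (0.21 against 0.19). Taken gene by gene, every DQ-12 rat exceeded every vehicle rat at D180 for 0 of these 5 genes and for 5 of the 28 type I targets. At D30 the chemokine mean was 0.28 to 2.18 after DQ-12 (median 1.29) and -0.62 to 0.84 in the vehicle group (median -0.08). At D1 it was 0.11 to 1.71 (median 0.75) and -0.46 to 0.88 (median -0.16), respectively, so that the groups overlapped at both earlier times.

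**Figure D4:**
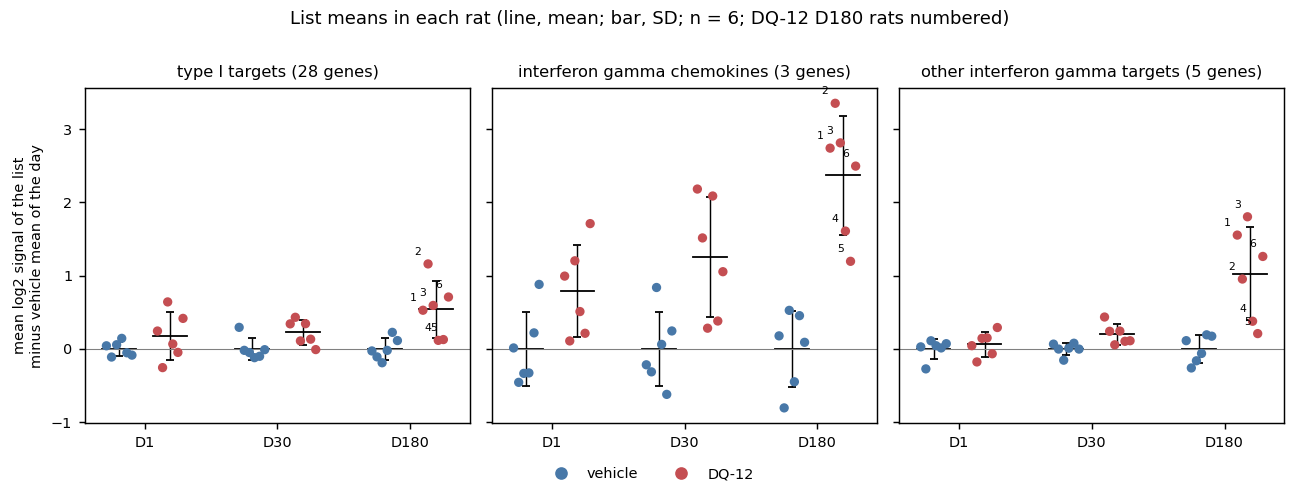
Mean log2 signal of the type I targets (28 genes), the interferon gamma chemokines (3 genes), and the other interferon gamma targets (5 genes) in each rat, minus the vehicle mean of the same day (y axis), by time point and group, with the group mean as a line and the SD as a bar. The numbered DQ-12 rats of D180 show that rats 4 and 5 are lowest in each list, that rat 2 is highest in the type I targets and chemokines, and that rat 3 is highest in the other interferon gamma targets.

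The DQ-12 rats of D180 differed in which members stood highest. Rat 2 was the highest of the 6 for 12 of the 14 type I targets called higher, the exceptions being Ifi35 and Parp14, and for Cxcl10 and Cxcl11. Rat 3 was the highest for all 5 of the other interferon gamma targets and for Cxcl9. Rats 4 and 5 were the lowest pair for 20 of the 22 members called higher at D180, the exceptions being Usp18 and Isg20. Rats 1 to 3 shared a scan date with vehicle rats 1, 3, and 4, while rats 4, 5, and 6 were scanned on other dates. Rat 6, alone on its date, was among the higher rats, with a list mean of 0.71 for the type I targets and 1.26 for the other interferon gamma targets. The array of rat 5 had the lowest share of probes well above background of all 36 (51.4%, up to 75.5%). Within the shared scan date the means differed by 1.90 for Gbp2, 1.88 for Ifi47, 1.43 for Mx1, and 2.50 for Ifit3, more than over all rats. Rat 5 shared a date with vehicle rat 2, and there the differences were 0.36, 0.87, 0.52, and 0.74. The part of scan date in the order of the rats was not tested.

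The ligands gave little signal in this tissue. Of 7 interferon ligand genes tested of 9 listed, 1 was lower at D1 (8.62% of all genes were) and 0 were called at D30 or D180 in limma (1 and 0 at an unadjusted p under 0.05). This was Ifnb1, interferon beta, which at D1 was well above background in all 6 vehicle rats, at 4.28 to 5.05 (median 4.53), and in 0 of 6 DQ-12 rats, at 2.74 to 4.17 (median 3.27), so that it was at least 1.91-fold lower (adjusted p = 0.0104). These signals were dim, and the DQ-12 arrays of D1 shared a scan date with vehicle rat 3 only. The part of scan date in this call was not tested. At D30 it was well above background in 0 rats of either group, and at D180 in 2 vehicle rats and 0 DQ-12 rats. Ifng, interferon gamma, was well above background in 0 vehicle and 2 DQ-12 rats at D30, and in 1 rat of each group at D180, with a log2 change of 0.43 (SE 0.44, adjusted p = 0.59). The array therefore did not measure either ligand well enough for a change at D180 to be read.

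Receptors, signaling genes, and sensors of the pathway were summarized from lists beside the members. For comparison, 7.58% of all genes tested were higher and 8.62% lower at D1. These shares were 2.74% and 1.24% at D30, and 7.82% and 9% at D180. Of 7 receptor genes, 1 was higher at D30 (Il10rb) and 1 at D180 (Ifngr2, 0.64, SE 0.15, adjusted p = 0.00211). Of 9 genes of Janus kinase and STAT signaling and its inhibitors, 2 were higher and 1 lower at D1, 0 were called at D30 in limma (3 at an unadjusted p under 0.05), and 3 were higher at D180. Socs1, which inhibits Janus kinases, was higher at D1 (1.18, SE 0.39, FC 2.26, adjusted p = 0.035). Of 15 sensors and inducers tested of 17 names listed, 2 were higher and 1 lower at D1, 3 higher at D30, and 7 higher at D180. The 2 with an FC of at least 2 were Tmem173, the gene of the DNA sensing adaptor STING, at D30 (1.10, SE 0.21) and D180 (1.44, SE 0.21, adjusted p = 4.11e-06), and Irf5, a factor of cytokine induction, at D180 (1.38, SE 0.11, adjusted p = 4.52e-11). Both stood above all vehicle rats in all 6 DQ-12 rats at all 3 time points.

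A further 46 interferon-induced genes, of which 45 were tested, gave 6 higher and 2 lower at D1, 3 higher at D30, and 19 higher and 1 lower at D180. At D1 this was 13.3% higher and 4.44% lower, beside 7.58% and 8.62% of all genes. The shares of all genes were 2.74% higher at D30, and 7.82% higher and 9% lower at D180. The 6 with an FC of at least 2 at D180 were Ifi30, a lysosomal reductase of antigen processing (1.35, SE 0.09), Ifit1bl, a paralog of Ifit1 (1.32, SE 0.29), Cd274, the gene of the checkpoint ligand PD-L1 (1.32, SE 0.13), Gbp4 (1.19, SE 0.27), Nlrc5, an activator of class I antigen presentation (1.14, SE 0.19), and Tap1, a peptide transporter of that pathway (1.09, SE 0.27). Their adjusted p values ran from 4.5e-12 for Ifi30 to 0.00425 for Tap1. Gbp4 was lower at D1 (-0.81, SE 0.27, adjusted p = 0.0343).

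Cell type markers moved at D180 too, and their part in the results was not tested. The counts below stand beside 7.82% of all genes tested that were higher and 9% that were lower at D180. The log2 summed signal of 6 neutrophil markers was 13.36 to 14.07 in vehicle rats and 15.56 to 16.08 in DQ-12 rats, with 4 of 6 higher. Of 8 macrophage and monocyte markers 3 were higher and 1 lower, with Cd68 higher by 1.55 (SE 0.15). Lyz2 made up most of their summed signal, and the log2 sum of the other 7 was 12.90 to 13.43 in vehicle rats and 14.06 to 14.66 in DQ-12 rats. Of 8 T cell markers 1 was higher (Cd4), with sums of 12.52 to 13.23 and 12.84 to 13.57, and of 7 NK cell markers and 5 B cell markers 0 were called in limma at D180 (0 and 1 at an unadjusted p under 0.05), with NK sums of 13.57 to 14.10 and 13.00 to 14.60. Of 6 plasmacytoid dendritic cell markers, which include the members Bst2 and Irf8, 1 was higher and 1 lower. The lung epithelium and endothelium markers were well above background in every group, as the tissue label says, and all 4 endothelial markers were lower at D180. Trat1 of the T cell list was well above background in 0 of 6 DQ-12 rats at D1, and every other marker was so in at least 1 rat of each group.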

How the data were processed

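Single-color Agilent arrays (SurePrint G3, Feature Extraction 12.0.1.1) of 36 rat lungs were read from the deposited scanner files, whose processed signal is a background-corrected intensity that the authors did not normalize between arrays. The deposited log2 values of the series, used as an alternative, equal log2 intensity minus the 75th percentile of each array, centered per probe. Control and outlier spots were left out (232 to 596 spots of 58717 per array), spots of a probe were averaged on the log2 scale, and probes above the 95th percentile of 308 negative controls on at least 6 arrays were kept. Arrays were quantile normalized, and the brightest probe stood for each gene, leaving 23940 genes. The 6 group means were fitted in limma 3.58.1 (R 4.3.3, statmod 1.5.0), with Benjamini-Hochberg adjustment over all genes for each comparison, and the scripts were tested on simulated data. The signal over background and the 6 rats per group limit the precision. Replicate numbers did not pair the samples: the correlation of deviations ran from -0.13 to 0.22, with 6 of 18 pairs over 0.1.

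The members and all lists were chosen with earlier results of these data known, so list counts and medians carry no test. Full values are given for the 3 chemokines and each member called at any time with an FC of at least 2, and for Ifng, Ifnb1, and other pathway genes past the same limits. The values of 1 pathway gene are not reported here. Other genes named were chosen after their values were seen. Alternatives covered scaling, background correction, filters, probe summary, scan date, slide, replicate number, array weights, each day alone, and each rat left out. Marker sums without Bst2 and Irf8, or without Lyz2, were added after seeing the data.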

Additional observations from a re-analysis of the deposited data

Results flagged for a closer look

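The change after DQ-12 differed between D180 and D1, by a limma interaction test, for 6 members. The difference of the log2 changes was 1.12 for Xaf1, 1.35 for Gbp5, 1.23 for Gbp2, 0.63 for Parp14, 0.79 for Irf1, and 1.00 for Ifi47.

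Probes that were not used for their gene also rose at D180. The log2 change was 0.88 for the second probe of Irf8, where the used probe gave 0.82, and 1.03 for the second probe of Mx2, where the used probe gave -0.28.

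In 20 of the 216 groups of 6 rats searched, 1 rat lay apart from the other 5 by Dixon's ratio, where chance gives about 1 group in 20. Vehicle rat 1 of D30 did so for 4 members, with a log2 signal of 11.70 for Irf7, 11.86 for Isg15, 15.96 for Mx2, and 11.43 for Rtp4. DQ-12 rat 2 of D1 did so for Mx2 (13.64), Rtp4 (9.40), and Ifih1 (5.39). Vehicle rat 2 of D1 did so for Parp9 (7.75), Parp14 (11.60), and Gbp2 (11.69), vehicle rat 3 of D1 for Oas1a (8.60) and Oasl (5.68), and vehicle rat 4 of D1 for Ifi35 (9.72) and Ddx58 (9.31). The others were Irf8 in DQ-12 rat 1 of D30 (10.89) and DQ-12 rat 5 of D180 (10.31), Oasl in vehicle rat 3 of D30 (3.77), Ifit1 in DQ-12 rat 3 of D1 (6.26), and, in vehicle rat 5 of D180, Irf1 (12.85) and Ifit2 (9.70).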

How the results depend on the processing

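None of the results tested turned its direction while called. Of 1395 comparisons of a member with an alternative processing, 1270 kept their side of the threshold, 78 lost a call, and 47 gained one, and of 3888 with a rat left out, 3793, 69, and 26 did. The 1395 include scan date and slide as fixed blocks at D1 and slide at D180, where only 1 vehicle rat is compared. Part of the 78 losses therefore comes from fits whose calls are not counted elsewhere here. Signals near background limit Cxcl11, Oasl, Ifit1, and the ligands. The cause of the changes below was not tested.

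The 5 members higher at D1 became 3 with 75th percentile scaling, the deposited log2 values, the median of probes, or the replicate block. They became 11 with array weights, and 1 and 2 with scan date and slide as random blocks. The 1 lower became 2 with array weights or the well-above-background filter. It became 0 with the median of probes, the replicate block, or either random block. The 2 with an FC of at least 2 became 1 with D1 alone, normexp, or slide as a random block, and 0 with scan date as a random block. Scan date or slide as a fixed block leaves vehicle rat 3 as the only D1 control, so their D1 counts are left out. At D30 the 1 higher became 12 with array weights, 4 with normexp or the well-above-background filter, 2 with D30 alone or slide random, and 0 with scan date fixed or random. The 1 lower became 0 with D30 alone, the replicate block, scan date (fixed or random), or slide fixed. The 1 with an FC of at least 2 became 3 with array weights and 0 with scan date or slide, fixed or random. At D180 the 22 higher became 13 with D180 alone. Slide fixed compares DQ-12 rat 1 with vehicle rat 4 alone at D180, so its D180 counts are left out. Members whose change differed went from 0 to 7 with array weights and 1 with scan date fixed (D180 against D30), and from 0 to 1 with array weights (D30 against D1). The chemokine median became 0.46 at D30 and 0.96 at D180 with normexp, and at D180 3.83 with slide fixed and 2.05 with the well-above-background filter, which leaves out Cxcl11. The replicate block lost Mx2, Irf8, and Ifi35 at D1, Bst2 at D30, and Ifi35 at D180.

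With 1 rat left out, the members higher numbered 2 to 6 at D1, 0 to 4 at D30, and 19 to 25 at D180, those lower 0 to 1 at D1 and D30, and those with an FC of at least 2 numbered 0 to 2 at D1 and D30 and 8 to 13 at D180. Members whose change differed numbered 4 to 8 for D180 against D1 and 0 to 2 for D180 against D30. The type I median ran from 0.05 to 0.32 at D1, 0.20 to 0.28 at D30, and 0.47 to 0.68 at D180, and the chemokine median from 0.39 to 0.96, 1.31 to 1.92, and 2.65 to 3.25.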
